A study of Homo sapiens with 6 samples.

Results

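The 9 genes described here are CH25H, CYP27A1, CYP7B1, NR1H2, NR1H3, ABCA1, ABCG1, LPCAT3 and MYLIP, which make, clear, sense or answer to oxysterols. They were taken by gene symbol from the 19923 genes of the deposited table, and all 9 were present. They were chosen by measured values: CH25H was selected on its difference between ENL and control in these data, and the others were added around it with the results of the same contrast known. Their values are therefore a description, with no p-value. All 6 libraries are bulk RNA from BT549 cells, a line from a human breast carcinoma: 3 are labelled control and 3 are labelled ENL. The labels give no dose, duration or vehicle and do not spell out the agent, so ENL is used here as a group name. Whether replicates are separate cultures is not stated, and every p-value below therefore rests on a spread between libraries that could be technical. The counts summed to 74457932 to 85310759 units per library.

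Oxysterols are oxidised forms of cholesterol that cells use as signals of sterol load. CH25H and CYP27A1 each add a hydroxyl group to the cholesterol side chain, and CYP7B1 hydroxylates the products further towards bile acids. Oxysterols bind the liver X receptors LXRα (NR1H3) and LXRβ (NR1H2), which pair with retinoid X receptors and raise transcription of cholesterol export pumps (ABCA1, ABCG1), a phospholipid remodelling enzyme (LPCAT3) and a ubiquitin ligase that removes lipoprotein receptors (MYLIP, also called IDOL). Oxysterols such as 25-hydroxycholesterol also bind INSIG proteins and so hold back SREBP2, the factor that drives cholesterol synthesis. CH25H is known mainly as an interferon-induced gene of macrophages and dendritic cells.

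CH25H was far higher in ENL, whereas the LXR targets LPCAT3 and ABCA1 were lower, and the 250 bases before the start sites of these 3 genes are shown to set their promoters side by side. RefSeq's promoter table (GRCh38.p14) had an entry for 7 of the 9 members. Capitals mark matches, on either strand, to any of 11 motifs. They were the LXR element (2 copies of the half-site AGGTCA in the same direction with 4 bases between, called DR4), a relaxed form of it, the half-site alone, an interferon response element (2 copies of GAAA with 2 bases between), a cyclic AMP element (TGACGTCA), an AP-1 site (TGANTCA) and a CCAAT box. The rest were a TATA box (TATAAA), an E-box (CACGTG), a GC box (GGGCGG) and a heat shock element (GAA, TTC and GAA with 2 bases between each). The relaxed form leaves base 5 of the first half-site and base 1 of the second free, and it was chosen after the ABCA1 window had been read. A strict DR4 holds the half-site and is also a relaxed one. CH25H is on chr10:89207318-89207567, ABCA1 on chr9:104928156-104928405 and LPCAT3 on chr12:7018477-7018726, all on the minus strand and written 5′ to 3′.
CH25H: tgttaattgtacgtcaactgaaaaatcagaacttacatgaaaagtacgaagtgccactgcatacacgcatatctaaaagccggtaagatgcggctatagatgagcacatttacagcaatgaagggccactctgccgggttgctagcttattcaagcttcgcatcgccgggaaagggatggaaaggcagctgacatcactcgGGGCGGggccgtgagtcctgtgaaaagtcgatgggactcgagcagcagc
ABCA1: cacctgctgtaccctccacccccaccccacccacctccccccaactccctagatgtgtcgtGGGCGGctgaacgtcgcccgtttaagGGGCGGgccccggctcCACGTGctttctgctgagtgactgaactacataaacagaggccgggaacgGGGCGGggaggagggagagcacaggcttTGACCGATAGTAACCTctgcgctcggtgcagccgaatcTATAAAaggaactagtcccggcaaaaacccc
LPCAT3: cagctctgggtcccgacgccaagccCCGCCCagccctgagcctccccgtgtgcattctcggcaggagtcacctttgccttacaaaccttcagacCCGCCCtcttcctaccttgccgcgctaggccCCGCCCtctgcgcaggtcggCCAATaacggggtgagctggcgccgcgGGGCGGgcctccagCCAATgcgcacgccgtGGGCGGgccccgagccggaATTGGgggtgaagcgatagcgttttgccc

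The window before CH25H held 1 of the searched motifs, a GC box that ended 44 bases before the start, and such a box is found in 42.6% of the 35116 windows of that table. The ABCA1 window held the relaxed DR4 on the minus strand, from 69 to 54 bases before the start, which 0.0797% of all windows hold. Because the relaxed form was chosen after this window had been read, the match was given in advance and nothing is read from that share. The ABCA1 window also had a TATA box (10.7% of windows), an E-box (6.34%) and 3 GC boxes. The LPCAT3 window held 3 CCAAT boxes (32% of windows) and 5 GC boxes. None of the 3 windows matched the strict DR4, which is in 0.0142% of windows, or the interferon element, which is in 3.02%. A match is a match of letters only, and a missing match says only that these letters are not in the window.

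The oxysterol-making gene CH25H (chromosome 10, 89205629 to 89207314, minus strand, GRCh38) is a gene of 1 exon. It was at 0.457, 0.691 and 0.729 CPM in control libraries 1, 2 and 3 and at 54.2, 50.8 and 49.3 CPM in ENL libraries 1, 2 and 3. CPM is the count scaled to library size with trimmed-mean (TMM) factors. CH25H was thus barely detected in every control library and well detected in every ENL library, and the lowest ENL library lay 67.5-fold above the highest control library. A fragment was taken to add about 4 units to the deposited count. Behind the control values thus stood about 10, 14 and 15.5 fragments, and behind the ENL values about 866 to 1023. The log2 fold change was 6.36 ± 0.20 (SE, n = 3 per group), the sixth highest of the 14086 genes tested (rank 6), and it stayed between 6.15 and 6.49 in 15 other settings. In such bulk samples, more cells with CH25H and more CH25H RNA per cell cannot be told apart.

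CYP27A1 (chromosome 2, 218781749 to 218815293, plus strand), the mitochondrial sterol 27-hydroxylase gene, was at 12.6, 15.0 and 15.1 CPM in control and at 18.2, 20.7 and 20.3 CPM in ENL. The ENL libraries were all above the control libraries, but the gap was small beside that of CH25H. The log2 fold change was 0.47 ± 0.12. It fell to 0.27 under scaling by library totals, and it was not past the threshold there, without control library 1 (0.40) or without ENL library 2 (0.44). CYP7B1 (chromosome 8, 64587763 to 64798761, minus strand), the oxysterol 7-alpha-hydroxylase gene, was listed at 0 in 5 libraries and at 0.271 CPM, about 5.5 fragments, in control library 2. A count of 0 in an ENL library allows up to 0.145 to 0.176 CPM (3 fragments, counting error only), so that no difference could be measured and CYP7B1 was not tested.

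Neither of the LXR genes was past the threshold. NR1H2 (chromosome 19, 50329653 to 50382982, plus strand), which encodes the widely expressed LXRβ, was at 57.7, 57.7 and 54.7 CPM in control and at 60.0, 57.8 and 48.1 CPM in ENL. The groups overlapped, the log2 fold change was -0.04 ± 0.10, and its sign changed between settings (-0.25 to 0.07 over 15 settings). NR1H3 (chromosome 11, 47248300 to 47269032, plus strand), which encodes LXRα, was low, at 1.88, 2.10 and 1.78 CPM in control and 1.60, 1.36 and 1.49 CPM in ENL. All ENL libraries lay below all control libraries, yet the log2 fold change of -0.37 ± 0.21 rested on about 23.2 to 42.5 fragments per library. NR1H3 shares 189 exon bases with ACP2 on the opposite strand, with strand handling not given in the sources used here.

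Among the genes that LXRs are known to induce, ABCA1 and LPCAT3 were lower in ENL, ABCG1 was near 0 and MYLIP did not pass the threshold. ABCA1 (chromosome 9, 104781002 to 104928237, minus strand), which loads cholesterol onto apolipoprotein A-I, was at 35.3, 37.1 and 37.7 CPM in control and at 25.0, 22.5 and 31.8 CPM in ENL. The groups did not overlap, but ENL library 3 stood nearer to control than the other ENL libraries. The log2 fold change was -0.47 ± 0.14. It was no longer past the threshold without control library 1 (-0.50), control library 2 (-0.46), control library 3 (-0.45), ENL library 1 (-0.43) or ENL library 2 (-0.37), and it was -0.61 without ENL library 3.

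LPCAT3 (chromosome 12, 6976186 to 7018510, minus strand), which puts polyunsaturated fatty acids into phospholipids, was at 35.2, 32.1 and 32.7 CPM in control and at 16.6, 17.1 and 16.6 CPM in ENL. The ENL libraries sat close together at a level 0.502 times that of control. The log2 fold change was -0.99 ± 0.09. Annotated exons of LPCAT3 and of EMG1, a ribosome biogenesis gene on the opposite strand, share 3100 bases. EMG1 was at 66.3 ± 1.54 CPM (SD, n = 3) in control and 72.5 ± 7.80 in ENL, with a log2 fold change of 0.13 ± 0.10. Summed, LPCAT3 and EMG1 differed by -0.16 on the log2 scale, not past the threshold. EMG1 had the higher count, so the sum follows EMG1 more than LPCAT3 and does not show whether reads of this locus were divided correctly, which was not tested.

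ABCG1 (chromosome 21, 42199689 to 42297244, plus strand), which passes cholesterol to high-density lipoprotein, was listed at 0 in control libraries 1 and 3 and in ENL library 1. It reached 0.0494 CPM in control library 2 and 0.0587 and 0.0722 CPM in ENL libraries 2 and 3, which is 1 to 1.5 fragments. ABCG1 was therefore at or under the detection limit in all 6 libraries and was not tested. MYLIP (chromosome 6, 16129125 to 16148248, plus strand) was at 9.07, 8.69 and 10.2 CPM in control and at 9.72, 6.12 and 9.22 CPM in ENL. The groups overlapped, ENL library 2 was the low one, and the log2 fold change was -0.16 ± 0.20.

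**Figure D1:**
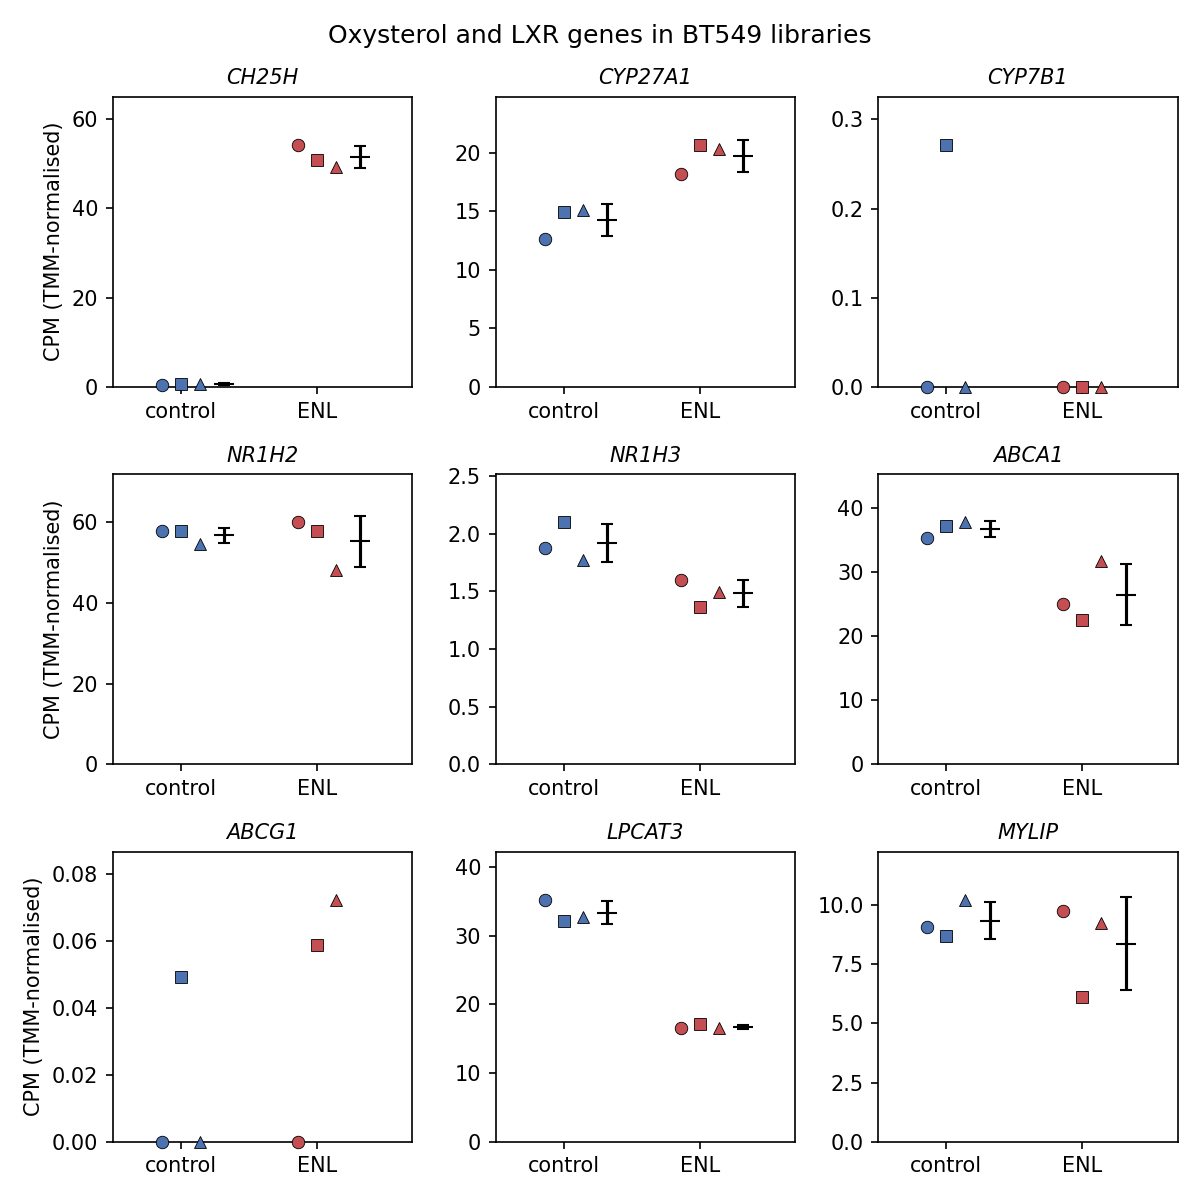
CPM (y axis, linear, TMM-scaled counts) of the 9 genes in control (blue) and ENL (red) libraries 1 (circle), 2 (square) and 3 (triangle), with the mean and SD (n = 3) to the right of each group where the gene was tested. CH25H goes from under 1 CPM in each control library to 49.3 CPM or more in each ENL library, LPCAT3 and ABCA1 are lower in ENL, and CYP7B1 and ABCG1 stay near 0.

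Counted by the threshold of an adjusted p below 0.05 in edgeR's quasi-likelihood test, 7 of the 9 members had enough counts to be tested, 2 were higher (CH25H and CYP27A1), 2 were lower (ABCA1 and LPCAT3) and 3 were not called. Of all 14086 genes tested 38.4% were called, 20.0% higher and 18.4% lower. The groups did not overlap for 5 of the 7 tested members, with ENL above control for 2 and below for 3. The same held for 54.0% of all genes tested, 26.4% above and 27.6% below. Since this contrast chose the members, nothing is read from these counts. The members went in both directions, with a median log2 fold change of -0.16 beside -0.02 for all genes.

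Per transcript length, CH25H was the lowest of the tested members in control and among the 2 highest by mean in ENL. Levels were compared between genes as CPM per kb of the longest annotated coding transcript (GENCODE 29). In control the order was NR1H2 (28.4 ± 0.871 CPM per kb, SD, n = 3), LPCAT3 (14.7 ± 0.723), CYP27A1 (6.22 ± 0.601), ABCA1 (3.50 ± 0.122), MYLIP (3.33 ± 0.281), NR1H3 (0.702 ± 0.0603) and CH25H (0.371 ± 0.0873). Of these neighbours in the order, only ABCA1 and MYLIP had ranges that overlapped. In ENL, CH25H (30.5 ± 1.48 CPM per kb) and NR1H2 (27.7 ± 3.17) came first with overlapping ranges. CYP27A1 (8.63 ± 0.590 CPM per kb) then stood above LPCAT3 (7.38 ± 0.142). MYLIP (2.99 ± 0.698 CPM per kb) and ABCA1 (2.52 ± 0.456) overlapped again, and NR1H3 (0.544 ± 0.0424) was the lowest of the 7. The order depends on the transcript taken, and with the shortest coding transcript 3 of 9 members kept their place in ENL and 7 of 9 in control. Both counts include the untested CYP7B1 and ABCG1, which were near 0 and last by either transcript. NR1H3 was the only tested member that kept its place in ENL. By the shortest transcript NR1H2 was at 109 ± 12.5 CPM per kb in ENL, with no library as low as CH25H at 30.5 ± 1.48. The range of CH25H then overlapped that of ABCA1, the next in order (28.6 ± 5.18 CPM per kb). CYP27A1 (17.8 ± 1.72 CPM per kb) was then already above LPCAT3 (14.7 ± 0.723) in control, whereas with the longest transcript it was below.

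**Figure D2:**
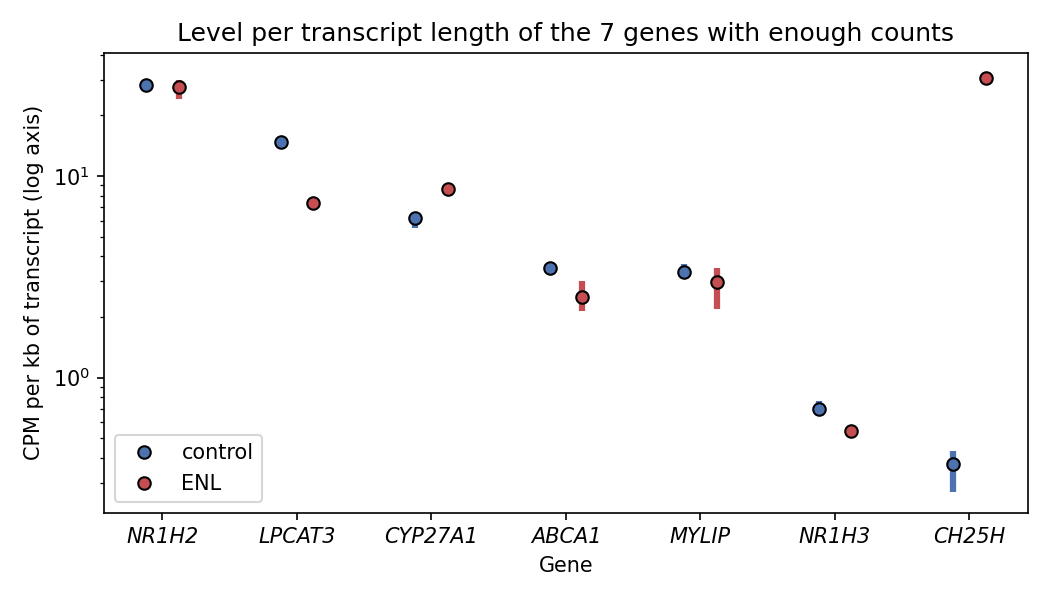
Level in CPM per kb of transcript (y axis, log scale) of the 7 tested genes, by the longest coding transcript and ordered by their control level, in control (blue) and ENL (red); points are means and vertical lines the range over 3 libraries. CH25H is lowest in control at 0.371, by the shortest transcript as well. In ENL it is at 30.5 and overlaps NR1H2, an overlap that holds for the longest transcript only (NR1H2 is at 109 by the shortest). By the shortest transcript CH25H overlaps ABCA1 in ENL.

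BT549 is a mesenchymal-like line, and its markers were read before the wider pathway. VIM was at 2744 ± 453 CPM in control and 5949 ± 503 in ENL, and made up most of the sum of the 9 mesenchymal markers, which was 3548 to 4265 CPM in control and 6466 to 7336 in ENL. Of these 9 markers 5 were higher and 1 lower, where 20.0% of all genes tested were higher and 18.4% lower. SPARC, a matrix glycoprotein gene, was the lower one, at 330.9 ± 5.20 CPM in control and 92.7 ± 3.05 in ENL (log2 fold change -1.83 ± 0.07, adjusted p = 1.93e-05). The part of these markers in the other differences was not tested. The 10 luminal markers summed to 143.5 to 162 CPM in control and 151.5 to 173.7 in ENL, and of the 8 tested 1 was higher and 2 lower. CDH1 and EPCAM were under 0.4 CPM in every library, ESR1 was under 1 CPM in every library and PGR was at 0 in all 6. Other luminal markers were expressed: GATA3 was at 30.1 ± 4.15 CPM in control and 31.6 ± 8.19 in ENL, and KRT18 at 26.3 ± 4.41 and 23.9 ± 3.06. KRT8 rose from 15.8 ± 2.42 to 38.0 ± 4.20 CPM (adjusted p = 0.000991), and ERBB2 fell from 78.4 ± 3.61 to 64.5 ± 1.12 CPM (adjusted p = 0.0247). The other lower one was FOXA1, at 0.300 ± 0.196 CPM in control and 0.0161 ± 0.0278 in ENL. SPARC and the luminal genes were named after their values were seen. Since CH25H is best known from macrophages, 14 macrophage and leukocyte markers were summed, and the sum ran from 67.8 to 84.3 CPM in control and from 56.6 to 63.8 in ENL. Most of that sum was CD68, a lysosomal protein that many cell types make, at 62.7 ± 6.83 and 57.4 ± 3.39 CPM. The leukocyte adaptor gene TYROBP was at 0 in all 6 libraries, and 9 of the 14 markers were below 1 CPM in every library. Of the 9 markers tested 0 were higher and 2 lower in edgeR's test. CD14 fell from 9.68 ± 1.31 to 1.71 ± 0.565 CPM, and CSF1R from 0.421 ± 0.129 to 0.0436 ± 0.0384 CPM. At an unadjusted p below 0.05 the count of higher markers was also 0, as it was with DESeq2 and limma-voom. Adipocyte, endothelial and hepatocyte markers summed to at most 0.719, 9.01 and 1.62 CPM in any library.

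Other known LXR target genes rose more often than they fell, unlike ABCA1 and LPCAT3. Of 26 such genes 17 were tested and 9 rose and 0 fell, with a median log2 fold change of 0.48, where 20.0% of all genes rose and the median was -0.02. At an unadjusted p below 0.05, 10 were higher and 1 lower. DESeq2 and limma-voom each called 9 higher and 0 lower, and scaling by library totals called 7 higher and 2 lower. Of all 14086 genes, scaling by library totals called 1804 higher and 3996 lower. Upper-quartile scaling, the replicate number as a block, counts divided by 4 and the fit without ENL library 3 each called 1 lower. SREBF1, which encodes the lipogenic factor SREBP1, was at 289, 311 and 311 CPM in control and at 688, 703 and 682 in ENL, a log2 fold change of 1.19 ± 0.07 (adjusted p = 7.54e-05). Each group was tight and the groups were far apart. SREBF1 shares 556 exon bases with RAI1 on the opposite strand.

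The fatty acid desaturase gene SCD rose from 994 ± 37.0 to 1877 ± 171 CPM (log2 fold change 0.92 ± 0.09, adjusted p = 0.000572) and TNFAIP3, an inhibitor of NF-kB signalling, from 26.0 ± 2.54 to 63.5 ± 5.47 CPM (1.29 ± 0.11, adjusted p = 0.000312). The fatty acid synthase gene FASN rose from 562 ± 19.9 to 765 ± 104 CPM (0.44 ± 0.11, adjusted p = 0.0175), a call lost under library totals (adjusted p = 0.163), without control library 1 (0.0659) and without control library 3 (0.0607). APOE, which encodes a lipid-carrying apolipoprotein, had 6.47 ± 1.18 CPM in control and 9.17 ± 1.38 in ENL (0.50 ± 0.19, adjusted p = 0.0751), and it passed without ENL library 3 (0.0407). Several of these genes answer to SREBPs as well as to LXRs, so the list does not belong to LXRs alone. None of the other 7 tested ABCA and ABCG transporters passed in edgeR's test, where 38.4% of all genes tested did. At an unadjusted p below 0.05, 0 were higher and 2 lower, beside 3489 and 3311 of all 14086 genes. DESeq2, limma-voom and the fit with the replicate number as a block each called 1 lower. Of all genes tested they called 2926, 2722 and 2310 lower. The fits by upper-quartile scaling, by library totals and without ENL library 3 each called 2 lower. Those fits called 3136, 3996 and 2877 of all genes tested lower. The median of these transporters was -0.33.

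The receptors' partners and co-regulators were mixed. Of 21 tested 5 were higher and 2 lower, with a median of 0.06, beside 20.0% higher and 18.4% lower of all genes. Scaling by library totals gave 2 higher and 4 lower, beside 1804 and 3996 of all 14086 genes. Upper-quartile scaling gave 3 and 4, beside 2356 and 3136 of all genes. The obligate partner RXRA was at 49.9 ± 11.0 CPM in control and 58.2 ± 5.70 in ENL (log2 fold change 0.22 ± 0.17, adjusted p = 0.346), and the corepressor NCOR1 at 77.5 ± 2.08 and 98.3 ± 19.0 (0.34 ± 0.14, adjusted p = 0.0894). The coactivator gene NCOA3 rose from 86.9 ± 5.35 to 174 ± 37.6 CPM (1.0 ± 0.15, adjusted p = 0.00276) and the deacetylase gene SIRT1 from 51.8 ± 2.02 to 77.4 ± 11.0 CPM (adjusted p = 0.00873, or 0.0678 under library totals). The coactivator gene PPARGC1A rose from 0.526 ± 0.228 to 3.49 ± 1.96 CPM (2.73 ± 0.60, adjusted p = 0.0123), a call lost in limma-voom (0.0503). Its relative PPARGC1B fell from 24.9 ± 1.55 to 14.9 ± 1.75 CPM (-0.74 ± 0.12, adjusted p = 0.00382). Without control library 1, control library 2, ENL library 1 or ENL library 2 the count of higher partners was 3. The count of lower ones was 1 without control library 1, control library 2 or ENL library 1 and 6 without ENL library 3.

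For 3 more partners the call was lost with single libraries left out. RXRB, another retinoid X receptor, had 0.52 ± 0.17 on the log2 scale (adjusted p = 0.0442), lost without control library 1 (0.135), control library 2 (0.124), ENL library 1 (0.122) or ENL library 2 (0.0531) and under upper-quartile (0.0780) or library-total scaling (0.176). GPS2, a corepressor subunit, had 0.45 ± 0.13 (adjusted p = 0.0275), lost without any of control libraries 1 (0.0934), 2 (0.0587) and 3 (0.0730) and ENL libraries 1 (0.0722) and 2 (0.0681) and under the same scalings (0.0605 and 0.115). TRRAP, a coactivator scaffold, had -0.55 ± 0.16 (adjusted p = 0.0334), lost without control library 1 (0.0945), 2 (0.0573) or 3 (0.0998) and ENL library 1 (0.0917) or 2 (0.0984). RXRB also shares exon bases with SLC39A7 and TRRAP with SMURF1, each on the opposite strand, and GPS2 with a neighbour on its own strand.

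Genes for proteins that sense, bind or move sterols more often rose than fell. Of 25 tested 11 rose and 3 fell, with a median log2 fold change of 0.37, or 8 and 4 under library totals. The shares of all genes in edgeR's test were 20.0% higher and 18.4% lower. Library totals called 1804 of all 14086 genes higher and 3996 lower. INSIG1, the anchor that 25-hydroxycholesterol binds, was at 46.5, 37.6 and 36.8 CPM in control and at 151, 197 and 213 CPM in ENL (2.22 ± 0.16, adjusted p = 0.000154). It is also a target of SREBP2, whose gene SREBF2 rose from 155 ± 3.01 to 220 ± 9.58 CPM (0.50 ± 0.07, adjusted p = 0.00188). The lysosomal cholesterol exporter gene NPC1 rose from 148 ± 15.6 to 269 ± 30.6 CPM (0.86 ± 0.12, adjusted p = 0.00166). OSBP, an oxysterol-binding lipid exchanger, rose from 57.3 ± 2.00 to 79.5 ± 5.62 CPM (adjusted p = 0.00535, or 0.0766 under library totals).

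The 3 Aster genes, which carry cholesterol from the plasma membrane to the endoplasmic reticulum, did not move together. GRAMD1A rose from 70.6 ± 2.81 to 144 ± 8.33 CPM (log2 fold change 1.03 ± 0.08, adjusted p = 0.000195). GRAMD1C fell from 3.67 ± 0.684 to 1.61 ± 0.325 CPM (-1.19 ± 0.24, adjusted p = 0.00823). GRAMD1B fell from 30.1 ± 4.42 to 18.2 ± 3.13 CPM (-0.73 ± 0.17, adjusted p = 0.0137, or 0.0507 without control library 3, where 1 of the list's genes was lower). OSBPL11 changed by -0.52 ± 0.15 on the log2 scale (adjusted p = 0.0304), lost without control library 1 (0.0933), 2 (0.0753) or 3 (0.0769) or ENL library 2 (0.0502). GPR183, the receptor of immune cells for the oxysterol that CH25H and CYP7B1 make together, was listed at 0 in 5 libraries and at 0.111 CPM in control library 2.

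Of 25 SREBP2 target genes 14 rose and 1 fell in edgeR's test, with a median log2 fold change of 0.87, or 12 and 4 under library totals. In edgeR's test 20.0% of all genes rose and 18.4% fell. By library totals 1804 of all 14086 genes rose and 3996 fell. MSMO1, a sterol enzyme of the same family of hydroxylases as CH25H, was at 31.8, 29.4 and 26.4 CPM in control and 210, 183 and 187 CPM in ENL (2.73 ± 0.11, adjusted p = 1.93e-05). The synthesis enzyme genes IDI1 (log2 fold change 1.99 ± 0.09), FDFT1 (1.36 ± 0.07) and CYP51A1 (1.04 ± 0.07) rose as well.

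Among the lipoprotein receptors that MYLIP acts on, LRP8 fell. LRP8 was at 104, 99.1 and 110 CPM in control and at 38.3, 37.7 and 68.8 CPM in ENL (log2 fold change -1.11 ± 0.25, adjusted p = 0.0139). VLDLR was at 26.9 ± 3.02 and 23.3 ± 3.23 CPM (adjusted p = 0.280). ENL library 3 stood nearest to control for LRP8, but the groups of that gene did not overlap. Among the ubiquitin-conjugating partners, UBE2D3 rose by 0.42 ± 0.08 on the log2 scale (adjusted p = 0.00652, or 0.0640 under library totals). UBE2D2 had 0.33 ± 0.08 (adjusted p = 0.0185), lost without control library 2 (0.0743) or 3 (0.0624) or ENL library 1 (0.0602) or 2 (0.0507) and under library totals (0.221). UBE2D4 had -0.81 ± 0.24 (adjusted p = 0.0362), lost without control library 1 (0.116) or 2 (0.0966) or ENL library 1 (0.106), 2 (0.0890) or 3 (0.0523). Of the 11 genes of this list 3 rose and 2 fell, with a median of 0.03, where 20.0% of all genes rose and 18.4% fell. Under library totals 1 rose, and 1 fell without any of the 5 libraries whose removal ended the UBE2D4 call.

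Of the 13 other lysophospholipid acyltransferase genes, all tested, 3 fell and 2 rose, with a median of 0.25, or 5 and 1 under library totals and 3 and 5 with DESeq2. The counts of 3 and 2, from edgeR's test, are near its shares of all genes, 18.4% lower and 20.0% higher. Of all 14086 genes tested, 3996 fell and 1804 rose under library totals, and 2926 fell and 3135 rose with DESeq2. LPCAT1 fell from 72.5 ± 5.43 to 46.9 ± 3.37 CPM (log2 fold change -0.63 ± 0.10, adjusted p = 0.00293) and AGPAT3 from 30.9 ± 0.773 to 19.2 ± 1.86 CPM (-0.68 ± 0.11, adjusted p = 0.00292). LPCAT2 had -0.44 ± 0.12 (adjusted p = 0.0261), lost without control library 1 (0.0715), 2 (0.0950) or 3 (0.0673) or ENL library 1 (0.0825) or 2 (0.0607). AGPAT4 rose by 0.57 ± 0.11 (adjusted p = 0.00711), and MBOAT2 by 0.45 ± 0.09 (adjusted p = 0.00795, or 0.101 under library totals).

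**Figure D3:**
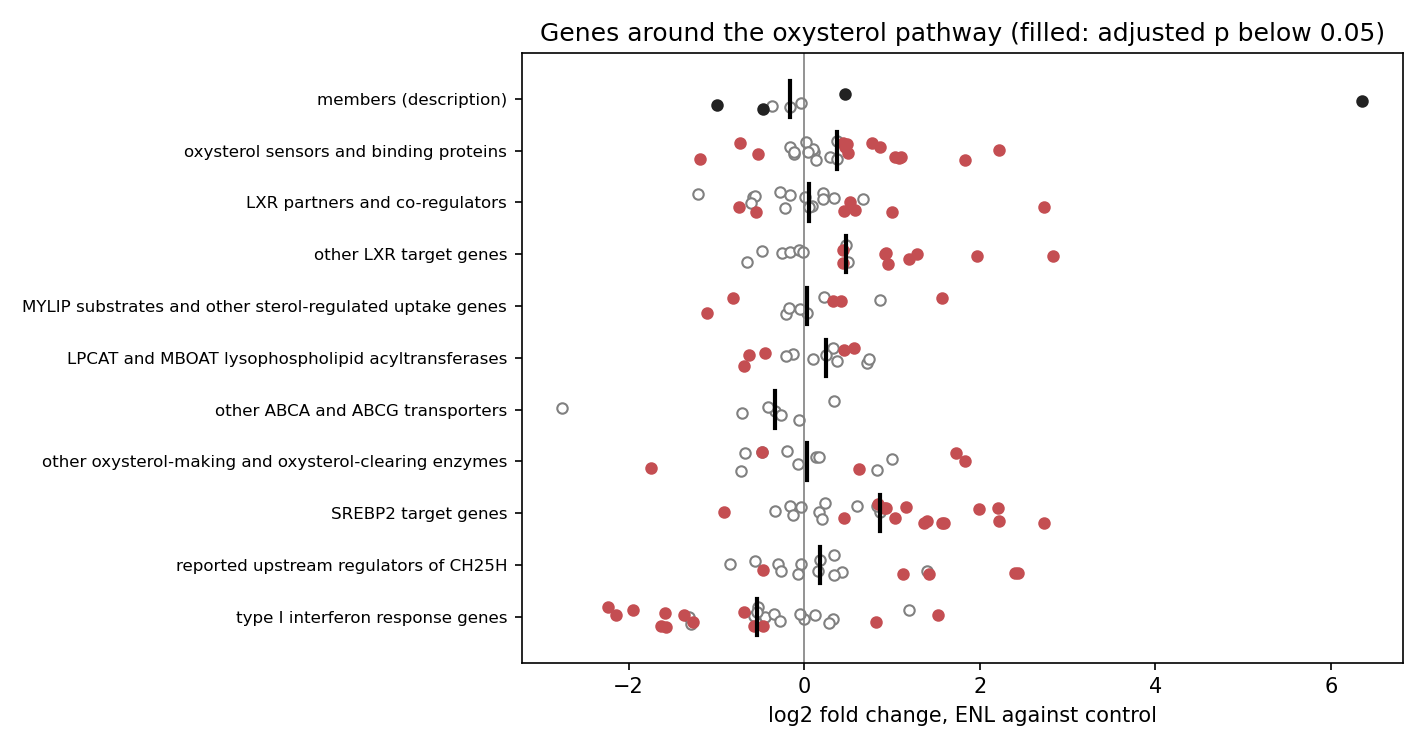
Log2 fold change of ENL against control (x axis) for each tested gene of 11 groups, 1 row per group; filled points passed an adjusted p below 0.05 (black for the members, whose values are a description), open points did not, and vertical bars are medians. CH25H stands alone at 6.36, other LXR targets and SREBP2 targets have medians of 0.48 and 0.87, and interferon response genes one of -0.54.

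Other enzymes that make or clear oxysterols went in both directions. Of 14 tested enzymes of oxysterol making and clearing 3 rose and 2 fell, with a median of 0.03. These counts are near the shares of all genes, 20.0% higher and 18.4% lower. CYP46A1, the brain cholesterol 24-hydroxylase gene, rose from 0.415 ± 0.152 to 1.48 ± 0.561 CPM (log2 fold change 1.83 ± 0.43, adjusted p = 0.0154, or 0.0501 without control library 2). The epoxide hydrolase gene EPHX1 rose from 32.7 ± 2.84 to 50.3 ± 1.19 CPM (adjusted p = 0.00278) and the peroxisomal gene HSD17B4 fell from 106 ± 4.47 to 76.0 ± 5.77 CPM (adjusted p = 0.00525). HSD3B7, which acts after CYP7B1, was at 48.0 ± 3.51 and 45.6 ± 4.93 CPM (adjusted p = 0.634), and SULT2B1, which sulphates oxysterols, at 0.539 ± 0.0629 and 0.339 ± 0.118 (adjusted p = 0.285). The count of higher genes was 1 without control library 2 and 5 without ENL library 3. The count of lower genes was 1 without any of control libraries 1, 2 and 3 and ENL libraries 1 and 3.

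Among all genes tested, 18.4% fell and 20.0% rose. Of the 6 tested genes of cholesterol esterification and ester hydrolysis 2 fell and 0 rose in edgeR's test, with a median of -0.35. At an unadjusted p below 0.05 the counts were also 2 and 0, as they were with DESeq2, and limma-voom gave 3 and 0. With any of control libraries 1, 2 and 3 or ENL libraries 2 and 3 left out, 1 gene fell. SOAT1, which esterifies cholesterol and is activated by oxysterols, was at 104 ± 7.11 and 94.9 ± 5.40 CPM (adjusted p = 0.281, or 0.0353 under library totals). NCEH1, a cholesterol ester hydrolase gene, fell from 28.8 ± 0.888 to 15.6 ± 1.77 CPM (log2 fold change -0.89 ± 0.12, adjusted p = 0.00149). LCAT had -0.44 ± 0.14 (adjusted p = 0.0459), lost without any 1 of the 6 libraries: control library 1 (0.151), 2 (0.0653) or 3 (0.108) or ENL library 1 (0.119), 2 (0.0958) or 3 (0.0578). Of 6 tested genes for relatives of CYP27A1, vitamin D enzymes and their electron-transfer partners 1 rose and 0 fell in edgeR's test, by DESeq2, by limma-voom and at an unadjusted p below 0.05, while 3 fell under library totals. The one that rose was the partner FDX2. The vitamin D enzyme gene CYP27B1, a relative of CYP27A1, was at 12.3 ± 0.498 and 10.4 ± 0.647 CPM (adjusted p = 0.123, or 0.0206 under library totals). FDX2, a ferredoxin gene, went from 8.78 ± 1.15 to 14.9 ± 2.51 CPM (adjusted p = 0.0125) and shares 972 exon bases with a neighbour on its own strand.

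Of 17 tested genes reported to act upstream of CH25H 4 rose and 1 fell, with a median of 0.18, where 20.0% of all genes rose and 18.4% fell. IRF1, an interferon-induced transcription factor gene, was at 24.4, 25.2 and 30.2 CPM in control and at 142, 146 and 143 CPM in ENL (log2 fold change 2.44 ± 0.10, adjusted p = 2.46e-05), and it shares 469 exon bases with a neighbour on the opposite strand. ATF3, a stress-induced factor reported to repress CH25H in macrophages, was at 20.6, 20.0 and 11.1 CPM in control and at 141, 51.3 and 79.1 CPM in ENL (2.40 ± 0.45, adjusted p = 0.00935). IRF9 rose by 1.42 ± 0.17 (adjusted p = 0.00113) and IRF7 by 1.13 ± 0.22 (adjusted p = 0.00680), while NFKB1 fell from 45.9 ± 1.05 to 33.1 ± 3.14 CPM (adjusted p = 0.00943). KLF4 had 1.40 ± 0.44 on the log2 scale (adjusted p = 0.0513), past the threshold with DESeq2 (0.000531), with a filter of 10 CPM (0.0439), with counts divided by 4 (0.0464) and without ENL library 2 (0.0175). IRF9 shares 1838 exon bases with a neighbour on its own strand. With control library 3, or ENL library 1 or 3, left out, 2 of these regulators fell.

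Of 27 tested interferon response genes 11 fell and 2 rose, with a median log2 fold change of -0.54, beside the same shares of all genes. IFIT2 was at 18.8, 17.9 and 19.7 CPM in control and at 3.91, 3.96 and 4.13 CPM in ENL (-2.23 ± 0.11, adjusted p = 4.24e-05). IFIT1, which like IFIT2 binds viral RNA or blocks its translation, was at 15.9, 13.5 and 12.3 CPM in control and at 3.06, 2.77 and 3.59 CPM in ENL (-2.14 ± 0.17, adjusted p = 0.000197). IFIT3 fell by 1.95 on the log2 scale and OASL by 1.63 (adjusted p = 0.000614 and 0.000615). ISG15 rose from 44.6 ± 5.02 to 78.5 ± 15.4 CPM (adjusted p = 0.00783). IFI44L had 1.53 ± 0.39 (adjusted p = 0.0200), lost without control library 1 (0.0550) or 2 (0.0623) or ENL library 1 (0.0547) or 2 (0.0588), where 1 gene of the list rose. The count of genes that fell was 7 without control library 1 or 2 and 6 without control library 3 or ENL library 2.

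**Figure D4:**
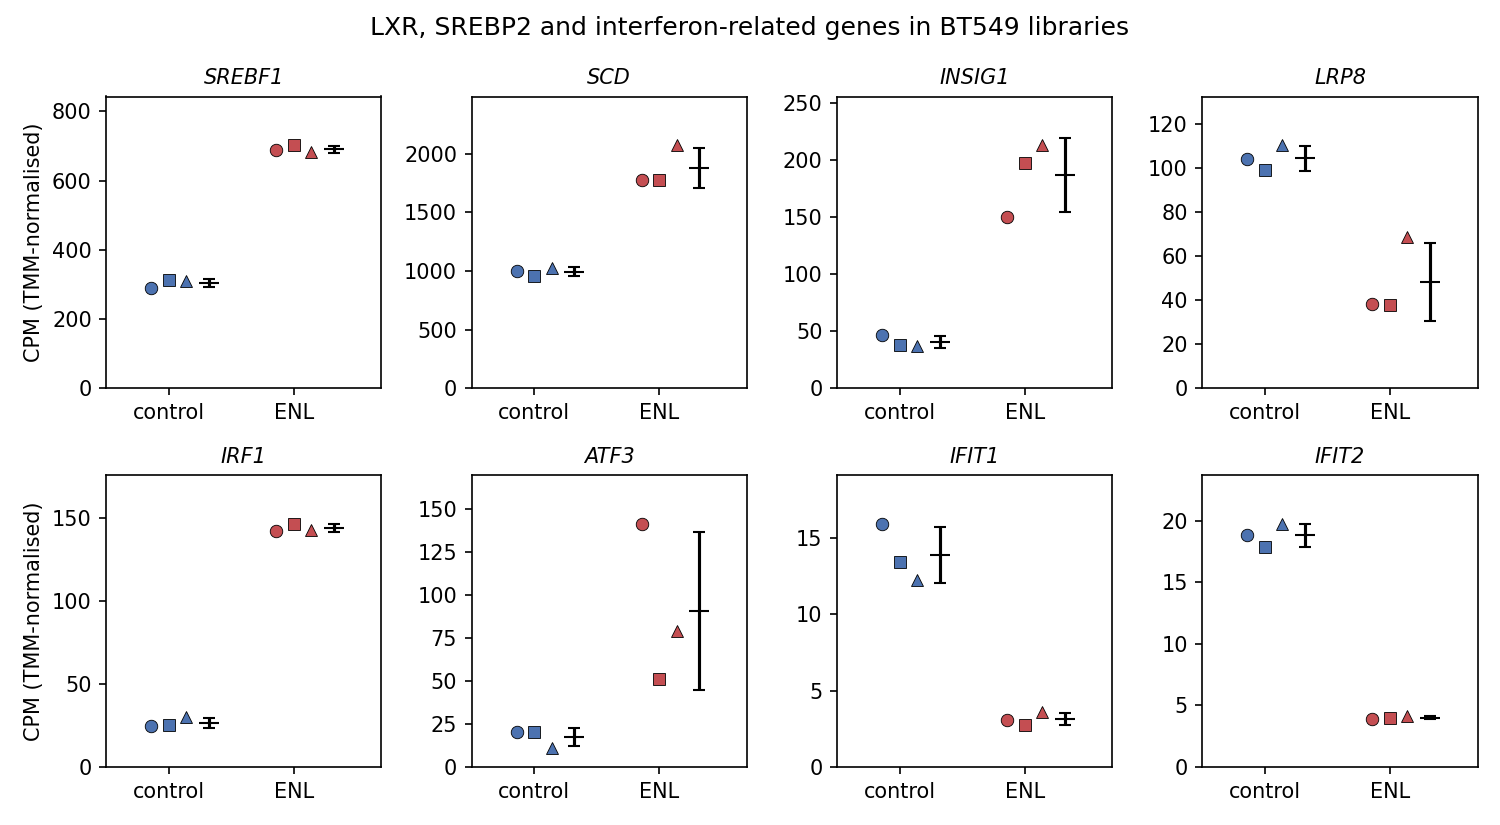
CPM (y axis, linear, TMM-scaled counts) of 8 genes around the oxysterol pathway in control (blue) and ENL (red) libraries 1 (circle), 2 (square) and 3 (triangle), with the mean and SD (n = 3) next to each group. SREBF1, SCD, INSIG1, IRF1 and ATF3 are higher in every ENL library, LRP8 is lower in each, and IFIT1 and IFIT2 fall to about 3 to 4 CPM.

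The genes whose pattern over the 6 libraries was most like that of CH25H were SREBF1 (Pearson's r = 0.9997 on log2 CPM), NGFR and PPP6R1 (both 0.9994), ANKRD33B (0.9991) and SRF (0.9990), among the 10779 genes that reached 5 CPM on average in either group. They are a nerve growth factor receptor gene (NGFR), a phosphatase subunit gene (PPP6R1), an ankyrin repeat gene (ANKRD33B) and a transcription factor gene of the cytoskeleton (SRF) beside the LXR target SREBF1. Their log2 fold changes were 1.19 (SREBF1), 5.06 (NGFR), 1.0 (PPP6R1), 0.61 (ANKRD33B) and 1.10 (SRF), all smaller than that of CH25H. In all, 292 genes had an r above 0.99. The 6 points form 2 groups and share their libraries, so the likeness is given as a description, with no p-value.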

How the data were processed

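RNA sequencing of 6 BT549 libraries was analysed. Per the submitters' processing notes, the tools were StringTie, STAR, FastQC and DESeq2 and the build hg38, with roles not stated. The authors' deposited table holds an estimated count per gene and library, unnormalised whole numbers that needed no rounding. Among values from 4 to 43, 70.8% to 73.1% were a multiple of 4 or that plus 1. Evenly spread values would also often fall there, so about 4 units per fragment is a working value. Totals per library ranged from 74457932 to 85310759. No replicate pair agreed within sampling noise (chi-square per degree of freedom 21.17 to 54.78). ENL library 3 had 47.55 and 54.78 against ENL libraries 1 and 2, and every other pair had 23.65 or less.

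Low counts were removed by filterByExpr (minimum count 10), and libraries were scaled with TMM factors. Groups were compared by the quasi-likelihood F test of edgeR (two-sided, no covariate). Benjamini-Hochberg adjustment ran over all genes tested, with a threshold of 0.05. Both the filter and the test took the counts in units as deposited, not in fragments. The versions were edgeR 4.0.16, DESeq2 1.42.0 and limma 3.58.1 under R 4.3.3, and the procedure was tested on simulated data. Positions, exons and transcript lengths came from GENCODE 29 (GRCh38), matched by symbol for 98.1% of genes, and are those of whole genes. The members and lists were chosen with earlier results of these data known. The text names the members, up to 4 genes per direction and list past the threshold with the smallest adjusted p and at least 1 CPM in the higher group, a set of pathway genes named whatever their value, and the 5 genes most like CH25H. Some genes that this rule names are counted in their lists but not reported here. No set test was made. Alternatives covered scaling, test, filter, replicate block, unit scale and each library left out.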

Additional observations from a re-analysis of the deposited data

How the results depend on the processing

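Scaling by library totals moved the median of all genes from -0.02 to -0.23 (log2), 1804 genes were higher and 3996 lower (31.1% of calls higher, against 52.2%), and 1 member was higher. Upper-quartile scaling gave 2356 higher and 3136 lower (42.9% higher). With each library left out, 2072 to 3156 genes were higher and 1743 to 2877 lower, and 1 to 2 members were higher and 1 to 2 lower. The members were chosen on the contrast of these same libraries, so their calls here are a description and no independent support. CH25H was called in all 15 other settings. LPCAT3 was called in 15 of 16, the exception being its sum with EMG1, an alternative chosen after seeing the data. ABCA1 was called in 10 of 15 and CYP27A1 in 12 of 15. NR1H2 and MYLIP changed sign in some settings without a call.

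With the shortest coding transcript, 3 of 9 members kept their place in the order of levels in ENL: NR1H3 and the untested ABCG1 and CYP7B1. The 5 genes most like CH25H were the same 5 with a prior count of 0.5.

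With the replicate number as a block, 2631 genes were higher and 2310 lower. Deviations of same-numbered libraries from their group means correlated by 0.03, 0.046 and 0.08, and those of differently numbered libraries by -0.075 to 0.032. With 3 libraries per group these values cannot tell whether same-numbered libraries were paired. Under the block the members' 4 calls were kept, and the adjusted p of RXRB (0.0894), LCAT (0.0871), UBE2D4 (0.100), LPCAT2 (0.0587), PPARGC1A (0.0579) and IFI44L (0.0538) no longer passed, whereas KLF4 (0.00221) did. No member shares exon bases with another gene on its own strand, so that planned sum was not run. With 1 fragment taken as about 4 units, depth limits CYP7B1, ABCG1 and the control level of CH25H.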
